A study of Mus musculus with 6 samples.

Results

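The genes described here are the nuclear genes for mitochondrial ribosomal proteins, taken as every gene whose mouse symbol begins with Mrpl or Mrps followed by a digit, with pseudogene symbols left out. This rule found 78 of the 24532 gene IDs in the tables, and it used no measured value. RNA sequencing measured them in 6 libraries of cells sorted from the bone marrow of C57BL/6J mice, with 2 biological duplicates in each of 3 populations. BaP, a basophil precursor by its label, was sorted without lineage markers and c-Kit but with CD34 and with staining by MAR1, an antibody that recognises the IgE receptor chain encoded by Fcer1a. MAR1HI and MAR1INT cells lacked lineage markers, CD34 and c-Kit, carried CD200R3, a receptor used to mark basophils, and differed from each other in a high or an intermediate MAR1 level. No population carried a treatment or an engineered allele in the labels, and the age and sex of the mice were not used here. Levels are in TPM, a transcript abundance that the authors scaled by transcript length and library total. A change is a difference of log2(TPM + 1) between group means with its standard error (SE), and a gene is said to have risen or fallen where limma, with Benjamini-Hochberg adjustment over all 11337 genes tested, gave an adjusted p under 0.05.

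Mitochondria carry their own ribosome, which translates the few messenger RNAs encoded by mitochondrial DNA into core subunits of the respiratory chain and ATP synthase. Its RNAs come from mitochondrial DNA, whereas its proteins are encoded in the nucleus, made in the cytosol and imported. Part of these proteins have a counterpart in the bacterial ribosome and part are found only in mitochondria. The large subunit forms the peptide bond and the small subunit reads the messenger RNA. Of the 78 genes, 51 encode proteins of the large subunit (30 with a bacterial counterpart and 21 mitochondria-specific), 26 encode proteins of the small subunit (16 and 10), and 1, Mrps36, encodes a component of the alpha-ketoglutarate dehydrogenase complex despite its symbol. Mrps30 and Mrps18a are counted with the large subunit, where their proteins sit in the assembled ribosome. The genes lie on 17 chromosomes, with at most 11 on any 1 of them.

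The 6 libraries were of like depth, between 4.75 and 5.28 gigabases of aligned sequence as implied by the deposited coverage and FPKM values. The summed level of 12 basophil marker genes was 17800 to 22700 TPM in BaP, 19700 to 23200 in MAR1HI but 14300 to 17000 in MAR1INT, with none at 0 in both libraries of a group. The sum was mostly Prss34, Mcpt8 and Cpa3, which fell in MAR1INT relative to BaP, as did Fcer1a. Cd200r3 (mean 833 TPM in BaP, 2519 in MAR1INT), Csf2rb (307 and 1555), Hdc, Gata2, Itga2 and Cyp11a1 rose. Ms4a2 and Il3ra did neither. Of markers of other cells, the sums for neutrophils and eosinophils were highest in BaP. The neutrophil sum (11 genes) was 4660 to 9700 TPM in BaP, 2820 to 3980 in MAR1HI and 3210 to 3800 in MAR1INT. The eosinophil sum (8 genes) was 1150 to 2160, 81.2 to 119 and 81.5 to 228 TPM in the same order. Of these markers, Epx, Prg3, Ear6 and Il5ra were at 0 in both MAR1INT libraries and Ear6 in both MAR1HI libraries, while no neutrophil marker was. Siglecf, of the eosinophil list, went the other way and rose in MAR1INT relative to BaP. It was at 21.9 and 20.9 TPM in BaP, 29.5 and 44.5 in MAR1HI, with 79.5 and 109.8 in MAR1INT. Prg2 (1.95 and 70.05 TPM) and Ear2 (0.0857 and 37.5) differed between the MAR1INT replicates. Of the neutrophil list, Mpo, Elane, Prtn3, Camp and Lcn2 fell in MAR1INT relative to BaP, and the others did neither. S100a8 (1298 and 2798 TPM in BaP, 1867 and 1665 in MAR1INT), S100a9 and Mmp9 were lower in BaP replicate 1 than in both MAR1INT libraries. A list of 8 MHC class II and dendritic cell genes was at 352 to 967 TPM in BaP, 40.1 to 57.8 in MAR1HI and 16.5 to 23.9 in MAR1INT. The sums for monocytes and macrophages (11 genes, 632 to 918, 408 to 511 and 725 to 791 TPM in that order) and for erythroid cells (9 genes, 1580 to 2390, 635 to 1250 and 1270 to 2800) were higher in MAR1INT than in MAR1HI. Of the first list, Ccr2 (230.5 and 273.8 TPM in MAR1HI, 617.9 and 565.2 in MAR1INT) and Adgre1 rose. Ly86, C1qa, C1qc, Lyz2 and Vcam1 were lower in both MAR1INT libraries than in both MAR1HI libraries. The erythroid sums were mostly globins, which differed between replicates (Hbb-bs, 760.9 and 7.715 TPM in MAR1INT). Klf1, Car1 and Car2 were lower in both MAR1INT libraries, and Alas2 and Hba-a1 higher. Markers of B and plasma cells (8 genes) were at most 41.1 TPM in every library. The mast cell list was carried by Kit, with each of the 9 other genes at 1.88 TPM or less in every library, and the T and NK cell list by Nkg7 (371 and 380.1 TPM in BaP, 32.3 and 51.5 in MAR1INT), with each of the 8 others at 4.03 TPM or less. Of the genes for proteins used in the gates, Cd34 was at 52.6 and 44.1 TPM in BaP, at most 7.63 in MAR1HI and at most 0.134 in MAR1INT. Kit was at 44.9 and 38.6 TPM in BaP, although these cells were sorted without c-Kit protein, at 2.94 and 4.36 in MAR1HI, and at most 0.449 in MAR1INT. The part of other cells or of immature cells in the results below was not tested. The MAR1INT libraries listed 10.6% and 8.57% of the tested genes at exactly 0, against 0.406% to 1.44% in the 4 others, and even among the 8775 genes with a mean of at least 5 TPM the shares were 3.43% and 2.53% against 0.0798% to 0.239%. An exact 0 may be a failed estimate in this kind of file, so such values are given as listed at 0.

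Promoter sequences are shown for 3 genes that fell in MAR1INT (Mrpl58, Mrps22 and Mrps27) and for 1 whose level in MAR1INT was close to that in BaP (Mrpl32), because letters bound by ETS factors, YY1 and NRF1, regulators known from nuclear genes for mitochondria, recur before these genes. They were chosen after their values and motifs were seen. Each is the 250 bases before the start of the gene, written 5′ to 3′ on the gene's strand, from RefSeq on GRCm38.p6, and capitals mark the ETS letters CCGGAAG, the YY1 letters AAGATGGC or the palindromic NRF1 site on either strand. The windows are chr11:115403502-115403751 on the plus strand for Mrpl58, chr9:98601680-98601929 on the minus strand for Mrps22, chr13:99344536-99344785 on the plus strand for Mrps27 and chr13:14613038-14613287 on the minus strand for Mrpl32.
Mrpl58: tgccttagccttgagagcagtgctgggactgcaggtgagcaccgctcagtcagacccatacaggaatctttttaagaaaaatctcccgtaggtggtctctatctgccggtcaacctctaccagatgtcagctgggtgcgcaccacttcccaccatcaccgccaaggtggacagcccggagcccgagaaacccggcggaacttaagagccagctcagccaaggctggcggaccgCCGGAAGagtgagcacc
Mrps22: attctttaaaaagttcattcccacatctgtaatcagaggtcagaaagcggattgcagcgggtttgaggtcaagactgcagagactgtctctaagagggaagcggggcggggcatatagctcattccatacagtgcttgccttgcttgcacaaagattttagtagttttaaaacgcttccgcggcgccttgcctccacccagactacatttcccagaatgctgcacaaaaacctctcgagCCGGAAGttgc
Mrps27: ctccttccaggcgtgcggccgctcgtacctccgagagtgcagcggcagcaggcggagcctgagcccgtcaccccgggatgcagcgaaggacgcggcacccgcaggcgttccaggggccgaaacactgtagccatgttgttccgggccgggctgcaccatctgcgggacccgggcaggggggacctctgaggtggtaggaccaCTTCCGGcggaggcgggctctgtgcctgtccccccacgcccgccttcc
Mrpl32: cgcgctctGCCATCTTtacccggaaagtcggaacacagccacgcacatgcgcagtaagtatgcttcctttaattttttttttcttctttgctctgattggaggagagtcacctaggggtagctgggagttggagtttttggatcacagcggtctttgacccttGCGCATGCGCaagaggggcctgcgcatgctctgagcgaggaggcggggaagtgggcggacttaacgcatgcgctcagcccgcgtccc

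The first 3 sequences hold the ETS letters close to the start of the gene, in Mrps27 as the reverse complement. The Mrpl32 sequence holds the YY1 letters as their reverse complement and the NRF1 site, which reads the same on both strands. A window of 300 bases, from 250 before to 50 after the start, was available for 69 of the 78 genes and was searched on both strands. In this longer window Mrps27, which fell, also held the YY1 letters after its start, and Mrpl58 held a second ETS match across its start. The ETS letters were found in 26 of the 69 genes (37.7%), against 8.86% of all 32851 promoter windows in the RefSeq table and 22.0% of the tested genes. The YY1 letters were found in 12 genes (17.4%, against 2.75% of all windows and 5.77% of tested genes) and the NRF1 letters in 3 (4.35%, against 0.971% and 2.52%). ETS and YY1 letters could share their AAG, but no member held the joined form. The letters of the E-box CACGTG, bound by MYC and related factors, were found in 5 genes (7.25%, against 7.15% and 11.9%), and those of the GC box GGGCGG, bound by SP1 and related factors, in 34 (49.3%, against 35.7% and 68.0%). Among the genes that fell in MAR1INT relative to BaP, 13 of 24 with a window held the ETS letters (54.2%), against 13 of the 45 others (28.9%). The YY1 letters went the other way, in 3 of the 24 against 9 of the 45, as did the NRF1 site, in 0 of the 24 against 3 of the 45. None of these differences was tested. A match is a description of the letters only.

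Summed over the 78 genes, the level was lowest in both MAR1INT libraries. The sum was 3882 and 2915 TPM in the BaP libraries, 3193 and 3551 in MAR1HI, with 2014 and 2217 in MAR1INT. The MAR1INT sums lay below the other 4, while BaP and MAR1HI overlapped. As a share of all TPM this was 0.388% and 0.292%, 0.319% and 0.355%, and 0.201% and 0.222%. The median level was 28.8 and 25.7 TPM in BaP, 24.3 and 26.5 in MAR1HI, with 14.3 and 14.0 in MAR1INT. The number of genes at 10 TPM or more was 64 to 69 in the BaP and MAR1HI libraries but 47 and 48 in MAR1INT. In bulk samples fewer cells of a type and less RNA per cell cannot be told apart.

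**Figure D1:**
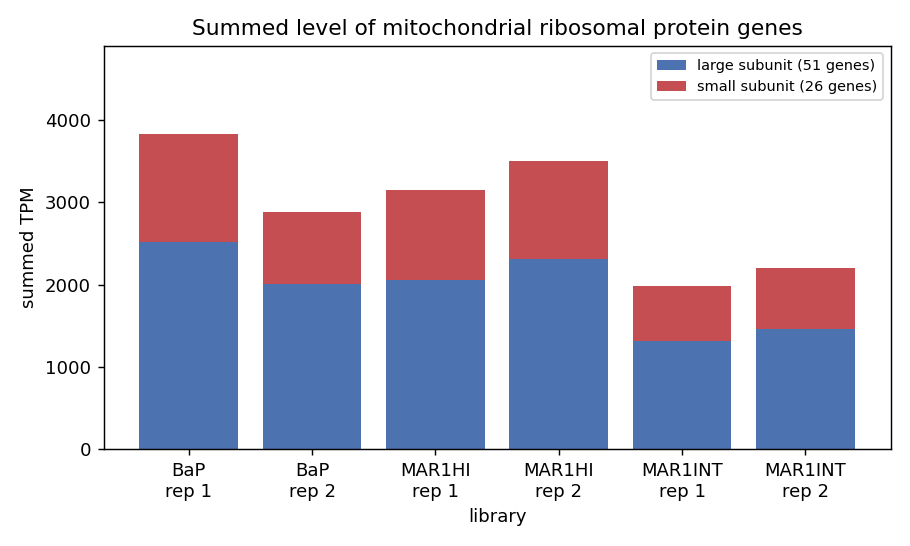
Summed TPM (vertical axis) of the 51 large-subunit and 26 small-subunit genes, stacked, in each of the 6 libraries (horizontal axis). Both colours are shorter in MAR1INT, where the large-subunit genes sum to 1314 and 1462 TPM and the small-subunit genes to 673.9 and 735.1.

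Both subunits took part in similar proportion. The large-subunit genes summed to 2520.0 and 2013 TPM in BaP, 2052 and 2311 in MAR1HI, with 1314 and 1462 in MAR1INT. The small-subunit genes summed to 1306 and 871 TPM, 1094 and 1187, and 674 and 735 in the same order. The ratio of large to small was between 1.88 and 1.99 in 5 libraries and 2.31 in BaP replicate 2, and in that library the small-subunit sum was the lower of the BaP pair. The most abundant small-subunit gene, Mrps18c, was at 382 TPM in BaP replicate 1 and 139 in BaP replicate 2.

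Relative to BaP, 27 of the 78 genes fell in MAR1INT (34.6%) and 1 rose. Over all genes tested, 20.4% fell and 11.1% rose in the same comparison. The median change of the 78 genes was -0.91, against -0.16 over all genes tested. The change was below 0 for 69 genes (88.5%, against 56.4%), and in 56 genes both MAR1INT libraries lay below both BaP libraries (71.8%, against 39.1%), whereas both lay above in 2 genes (2.56%, against 29.7%). The median was also below 0 in each of the 4 pairs of a MAR1INT and a BaP library, from -1.09 to -0.72 (all genes tested, -0.19 to -0.10). The difference between the members' median and that of all genes was -0.75 in TPM, -0.73 in FPKM, -0.75 after median-of-ratios scaling and -0.87 after quantile normalization, while the median of all genes itself moved from -0.16 to -0.34, -0.17 and 0.11. The count of genes that fell depended on single libraries. Without BaP replicate 1 it was 5 (6.41%), below the 9.73% of all genes that fell in that fit. It was 12 without BaP replicate 2 (15.4%, against 11.1%), 19 without either MAR1HI library (24.4%, against 16.8%), 29 without MAR1INT replicate 1 (37.2%, against 22.6%) and 35 without MAR1INT replicate 2 (44.9%, against 22.9%). Among all genes called, 35.3% rose in TPM, 27.8% in FPKM, 41.2% after median-of-ratios scaling and 55.1% after quantile normalization.

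**Figure D2:**
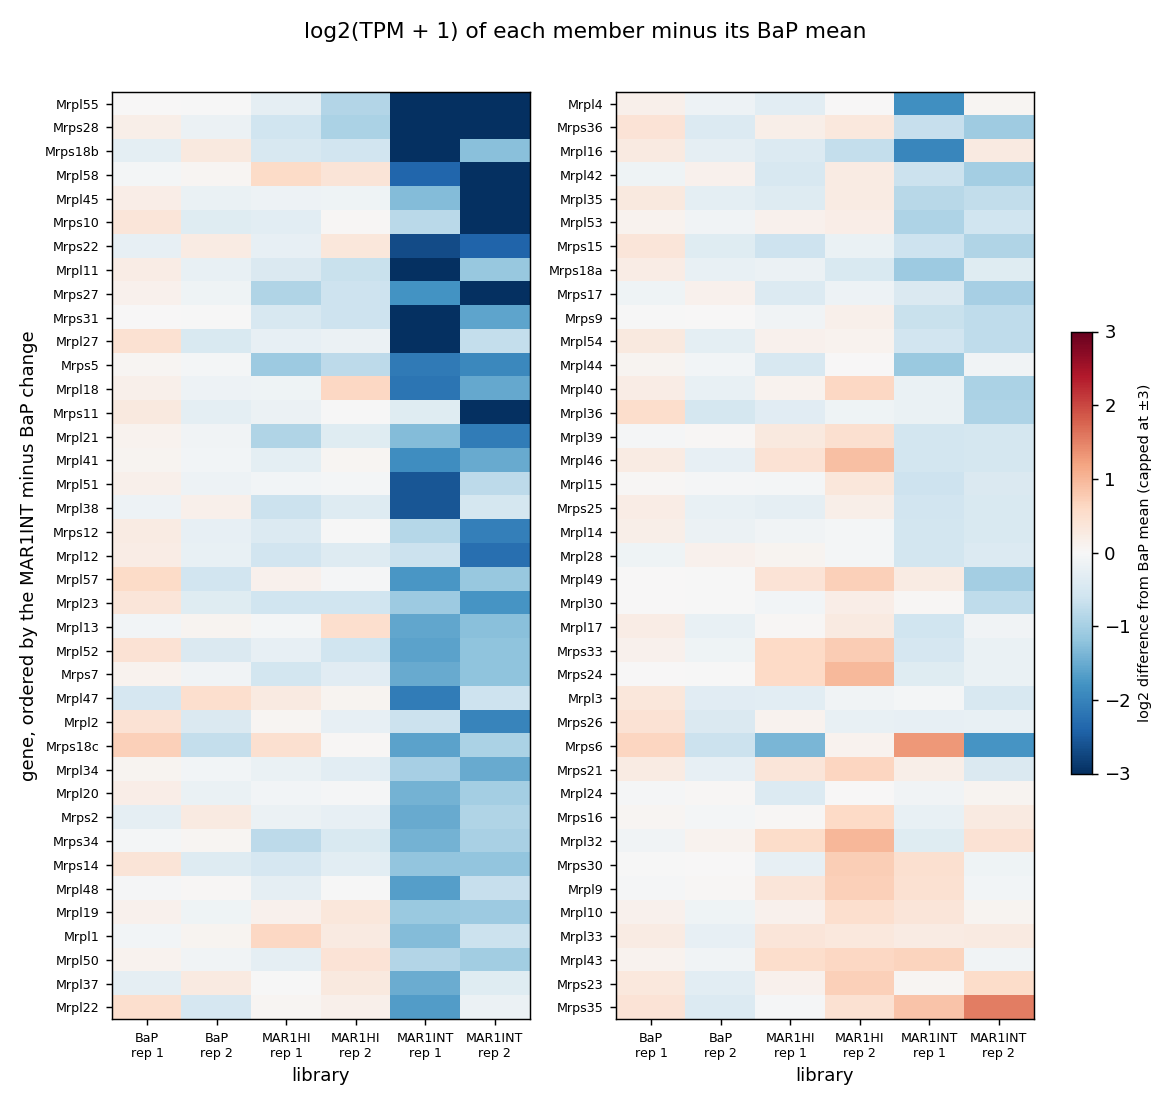
Level of each of the 78 genes (rows) in each library (columns) as log2(TPM + 1) minus the gene's BaP mean, with blue lower, red higher and the scale capped at 3 in either direction. The genes run from the lowest MAR1INT minus BaP change at the top left to the highest at the bottom right, and the MAR1INT columns are blue for most genes, while Mrps35 at the end is red.

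Relative to BaP, 5 genes fell in every one of the 15 alternative settings of the fit: Mrpl58, Mrps22, Mrps5, Mrpl55 and Mrps28. Mrpl58 encodes a peptidyl-tRNA hydrolase related to release factors that is built into the large subunit and frees stalled ribosomes, and it lies at chr11:115403752-115412674 on the plus strand. It was at 24.9 and 26.9 TPM in BaP, 38.7 and 34.1 in MAR1HI, with 4.17 and 2.01 in MAR1INT. Both MAR1INT libraries were far below the other 4, and MAR1HI was above BaP. The mean of 3.09 ± 1.53 TPM (SD, n = 2) in MAR1INT was 8.37-fold lower than that of 25.9 ± 1.44 (SD, n = 2) in BaP, with a change of -2.77 (SE 0.39, adjusted p = 0.000883), and 11.8-fold lower than that of 36.4 ± 3.25 (SD, n = 2) in MAR1HI, with a change of -3.24 (SE 0.39, adjusted p = 0.000833). Its exons overlap the antisense gene Ict1os, and since the strand setting of the counting is not given in the sources used here, reads of the pair cannot be told apart.

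Mrps22, a mitochondria-specific protein of the small subunit whose human gene is mutated in mitochondrial disease, lies at chr9:98588730-98601679 on the minus strand. It was at 13.1 and 19.0 TPM in BaP, 13.3 and 20.3 in MAR1HI, with 1.61 and 2.16 in MAR1INT. BaP and MAR1HI overlapped, and both MAR1INT libraries were below them. The change was -2.55 (SE 0.43, adjusted p = 0.00217) relative to BaP, or 8.53-fold lower. Relative to MAR1HI it was -2.60 (SE 0.43, adjusted p = 0.00377), a call that was lost without MAR1HI replicate 2 (adjusted p = 0.077).

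Mrps5, the counterpart of a bacterial protein near the decoding centre, lies at chr2:127587426-127603986 on the plus strand. It was at 41.6 and 37.7 TPM in BaP, 18.03 and 22.4 in MAR1HI, with 8.39 and 9.69 in MAR1INT. The 3 groups did not overlap, with BaP highest, MAR1HI between and MAR1INT lowest. It fell 4.38-fold from BaP to MAR1INT, a change of -2.02 (SE 0.33, adjusted p = 0.00184). The step from MAR1HI to MAR1INT, -1.07 (SE 0.33, adjusted p = 0.0521), did not pass the threshold, and neither did that from BaP to MAR1HI, -0.94, the lowest of the 78 changes in that comparison.

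Mrpl55 and Mrps28 were listed at 0 in both MAR1INT libraries. Mrpl55, a large-subunit protein with a bacterial counterpart (chr11:59202486-59206135, plus strand), was at 22.4 and 21.95 TPM in BaP and 18.1 and 11.6 in MAR1HI. Mrps28, a small-subunit protein (chr3:8802146-8923857, minus strand), was at 15.2 and 11.8 TPM in BaP and 8.57 and 6.43 in MAR1HI. In both genes the lowest library of the other groups stood well above 0, and no fold is given. The adjusted p relative to BaP was 0.000142 for Mrpl55 (change -4.53, SE 0.42) and 0.000287 for Mrps28 (change -3.85, SE 0.42), and relative to MAR1HI 0.000472 (change -3.96, SE 0.42) and 0.0016 (change -3.08, SE 0.42). The size of these changes depends on the pseudocount of 1.

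**Figure D3:**
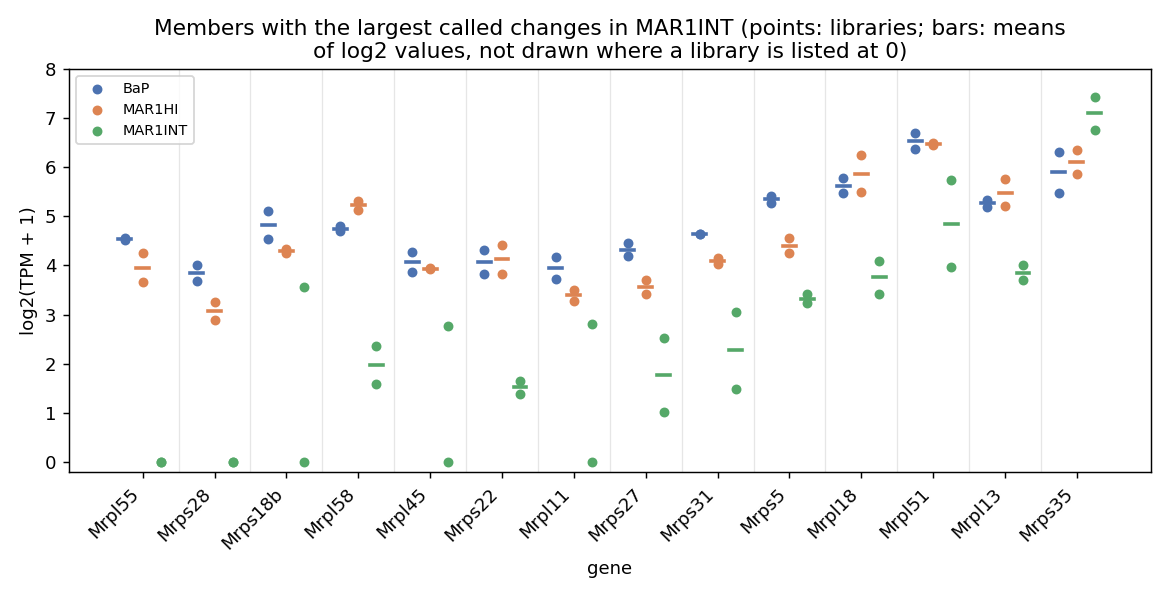
Level in each library (points) of 14 genes, as log2(TPM + 1) on the vertical axis, with BaP, MAR1HI and MAR1INT side by side for each gene. The genes are those among the up to 10 largest called changes in each direction of either MAR1INT comparison. Bars are means of the log2 values of a group and are left out where a library is listed at 0. The MAR1INT points are the lowest for every gene but Mrps35, where they are the highest.

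In 4 further members 1 of the MAR1INT libraries was listed at 0. Mrpl45, which anchors the mitochondrial ribosome to the inner membrane near the exit of the peptide tunnel, was at 18.3 and 13.6 TPM in BaP, 14.2 and 14.3 in MAR1HI, with 5.81 and 0 in MAR1INT. Its MAR1INT values were below the rest, but the call against BaP (change -2.68, SE 0.75, adjusted p = 0.024) was lost on leaving out any 1 BaP or MAR1HI library (adjusted p 0.0981 to 0.164). Mrps18b was at 22.3 and 33.5 TPM in BaP, 19.2 and 17.99 in MAR1HI, with 0 and 10.8 in MAR1INT (change from BaP -3.04, SE 0.91, adjusted p = 0.0307, and 0.123 to 0.182 on leaving out any 1 BaP or MAR1HI library). Mrpl11, at the base of the stalk that recruits translation factors, was at 17.0 and 12.2 TPM in BaP, 10.4 and 8.75 in MAR1HI, with 0 and 5.96 in MAR1INT (change from BaP -2.55, SE 0.77, adjusted p = 0.0314, and 0.0612 to 0.192 on leaving out any 1 BaP or MAR1HI library or MAR1INT replicate 1). In each of these 3 genes 1 MAR1INT library was listed at 0 and the other, at 5.81 to 10.8 TPM, lay below the 4 BaP and MAR1HI libraries. Mrps10 was the sixth member with a value of 0, at 11.2 and 0 TPM in MAR1INT, and did not pass either test. Of the 6 members with a 0, 5 fell relative to BaP, and 22 of the members that fell had no 0 in any library.

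Other members fell without a value of 0. Mrps27, a small-subunit protein of the pentatricopeptide repeat family, was at 21.0 and 17.2 TPM in BaP, 9.75 and 12.0 in MAR1HI, with 4.74 and 1.04 in MAR1INT. The groups did not overlap and MAR1INT was lowest, with a change from BaP of -2.55 (SE 0.52, adjusted p = 0.00605), lost without BaP replicate 1 (adjusted p = 0.0756) or BaP replicate 2 (adjusted p = 0.0505). Mrps31, another small-subunit protein, was at 24.02 and 23.99 TPM in BaP, 16.8 and 15.3 in MAR1HI, with 1.79 and 7.34 in MAR1INT. The groups again did not overlap, and the change of -2.37 from BaP (SE 0.51, adjusted p = 0.00763) was lost without BaP replicate 1 (adjusted p = 0.0774) or BaP replicate 2 (adjusted p = 0.0719). Mrpl18, a large-subunit protein with a bacterial counterpart that binds ribosomal RNA, was at 53.6 and 43.3 TPM in BaP, 43.7 and 74.8 in MAR1HI, with 9.72 and 16.1 in MAR1INT. BaP and MAR1HI overlapped and MAR1INT lay below both, with a change from BaP of -1.86 (SE 0.37, adjusted p = 0.00483, and 0.0684 without BaP replicate 1). Mrpl13, a large-subunit protein with a bacterial counterpart, was at 35.5 and 39.3 TPM in BaP, 35.8 and 53.1 in MAR1HI, with 11.9 and 15.2 in MAR1INT, with a change from BaP of -1.41 (SE 0.32, adjusted p = 0.00992, and 0.0777 and 0.0988 without BaP replicate 1 or 2). Mrpl51, a mitochondria-specific large-subunit protein, was at 102 and 81.9 TPM in BaP, 85.7 and 88.3 in MAR1HI, with 14.6 and 52.4 in MAR1INT. Its MAR1INT libraries were far apart, and its call against BaP (change -1.68, SE 0.48, adjusted p = 0.0254) was lost on leaving out any 1 BaP or MAR1HI library or MAR1INT replicate 1 (adjusted p 0.0932 to 0.17).

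Mrps35, a mitochondria-specific small-subunit protein (chr6:147042770-147070902, plus strand), was the 1 member that rose. It was at 78.5 and 43.5 TPM in BaP, 57.1 and 80.0 in MAR1HI, with 107 and 172 in MAR1INT. Both MAR1INT libraries were above the other 4, which overlapped. The change from BaP was 1.20 (SE 0.35, adjusted p = 0.028), a ratio of means of 2.29, and it did not pass without BaP replicate 2, either MAR1HI library or MAR1INT replicate 2 (adjusted p 0.0682 to 0.227).

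Several of the most abundant members did not pass the test. Mrpl33 was at 192 and 138 TPM in BaP, 209 and 202 in MAR1HI, with 194 and 197 in MAR1INT. Mrpl24 was at 174 and 185 TPM, 135 and 181, and 165 and 190.1 in the same order. In both large-subunit proteins the MAR1INT values lay within the range of the other 4 libraries or close to it, and for Mrpl24 the change from BaP was -0.02 (SE 0.22), 1 of the 3 changes closest to 0. The other 2 were those of Mrps16 (0.03, SE 0.30) and Mrpl32 (0.04, SE 0.31), whose MAR1INT values of 41.0 and 57.7 TPM and of 46.2 and 81.1 TPM straddled those of BaP (49.4 and 46.1 TPM, and 55.9 and 63.9 TPM). Mrps21 (155, 111, 168, 205, 147 and 97.4 TPM from BaP replicate 1 to MAR1INT replicate 2) and Mrpl30 (132, 129, 123, 150.4, 133 and 76.5 TPM) completed the 5 highest with Mrps18c, and for Mrps21 and Mrpl30 the lowest library was MAR1INT replicate 2. The 5 members with the lowest mean were Mrpl17, Mrps25, Mrps6, Mrpl19 and Mrpl35, at 2.03 to 3.80 TPM over the 6 libraries. Mrps6 was the 1 member whose replicates differed by more than 1 log2 unit in every group, at 5.20 and 1.56 TPM in BaP, 0.533 and 3.32 in MAR1HI, with 8.86 and 0.177 in MAR1INT, and its exons overlap those of Slc5a3 on the same strand.

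Relative to MAR1HI, 17 genes fell in MAR1INT (21.8%) and none rose in limma's test, where 1 gene was higher at an unadjusted p under 0.05. Over all genes tested, 14.5% fell and 2.29% rose. The median change of the members was -0.95, against -0.36 over all genes tested. The change was below 0 in 75 genes (96.2%, against 69.7%), and in 60 both MAR1INT libraries lay below both MAR1HI libraries (76.9%, against 42.2%). The distance of the members' median from that of all genes was -0.59 in TPM, -0.57 in FPKM, -0.58 after median-of-ratios scaling and -0.63 after quantile normalization. The count of 17 moved to 3 without MAR1HI replicate 2 (3.85%, against 1.86% of all genes in that fit), 6 without MAR1HI replicate 1 (7.69%, against 4.75%), 23 without MAR1INT replicate 1 (29.5%, against 19.2%) and 29 without MAR1INT replicate 2 (37.2%, against 19.8%). Without either BaP library it was 8 (10.3%), close to the 9.63% and 9.67% of all genes. It was also 8 with only the 2 groups compared (against 10.2% of all genes) and after median-of-ratios scaling (against 10.8%), again close to the share of all genes. Among all genes called, 13.7% rose in TPM, 39.5% after median-of-ratios scaling and 45.3% after quantile normalization, and the members that fell were then 8 and 9.

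Mrpl55, Mrpl58 and Mrps28 fell relative to MAR1HI in all 15 alternative settings, and Mrps22 in 14. Mrpl18 (change -2.11, SE 0.37, adjusted p = 0.00499) and Mrpl13 (-1.63, SE 0.32, adjusted p = 0.00938) lost the call without MAR1HI replicate 2 (adjusted p = 0.0927 and 0.0912). For Mrpl45 (-2.55, adjusted p = 0.0467), Mrps31 (-1.82, adjusted p = 0.04), Mrps27 (-1.79, adjusted p = 0.0452) and Mrpl51 (-1.61, adjusted p = 0.0477), leaving out any BaP or MAR1HI library ended the call, as did 1 of the MAR1INT libraries. Leaving out a BaP library can move these values because the 3 groups share 1 estimate of the spread. Relative to both other groups, 14 members fell. Another 13 fell relative to BaP alone and 3 (Mrpl1, Mrps24 and Mrps33) relative to MAR1HI alone. The shares of all genes tested that would fall in each of these sets were not computed, so the counts stand without a comparison. Whether these sets differ in their changes was not tested.

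No member rose or fell between BaP and MAR1HI, where 0.662% of all genes tested fell and 1.83% rose (2.49% in either direction). The lowest adjusted p of limma was 0.178, and at an unadjusted p under 0.05 1 member was lower and 3 were higher. The median change was -0.06, against 0.24 over all genes tested, and 42 members lay below 0 (53.8%, against 32.6%). In 16 genes both MAR1HI libraries were below both BaP libraries (20.5%, against 15.3%), and in 13 both were above (16.7%, against 38.2%). The members' median minus that of all genes was -0.45 to -0.08 over the fits, and the sign of the members' median turned to above 0 without BaP replicate 1 (0.14) or MAR1HI replicate 1 (0.03). A test of any difference among the 3 groups passed for 22 members (28.2%), close to the 26.6% of all genes tested. In 52 members both MAR1INT libraries lay below all 4 others (66.7%, against 32.6%).

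**Figure D4:**
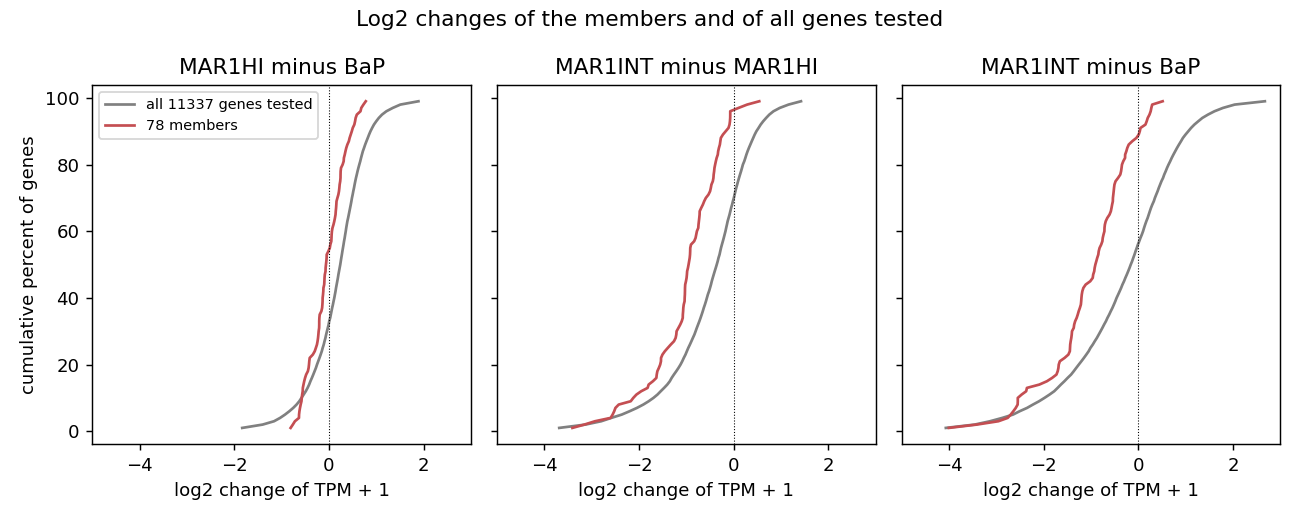
Cumulative percent of genes (vertical axis) by log2 change of TPM + 1 (horizontal axis) for the 78 members (red) and all 11337 genes tested (grey), in 3 panels, 1 for each comparison. The red curve lies to the left of the grey one over most of its length in both MAR1INT panels, with medians of -0.95 against -0.36 and -0.91 against -0.16, and between BaP and MAR1HI it is steeper, with medians of -0.06 and 0.24.

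Over the 78 genes the replicates of MAR1INT were the least alike, while over all genes tested the median difference was largest in MAR1HI. The median absolute difference between the 2 libraries of a group over the 78 genes was 0.35 log2 units in BaP, 0.29 in MAR1HI and 0.57 in MAR1INT, against 0.27, 0.44 and 0.35 over all genes tested. A difference above 1 log2 unit was found for 6, 1 and 21 members, or 7.69%, 1.28% and 26.9%, against 6.19%, 5.12% and 17.8% of the genes tested. In MAR1INT these included Mrps11, at 20.4 and 2.17 TPM, and Mrpl27, at 2.94 and 37.7 TPM. The direction was not shared, since Mrps11 was higher in replicate 1 and Mrpl27 in replicate 2.

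By subunit, 16 of 51 large-subunit genes fell relative to BaP (31.4%, against 20.4% of all genes tested) and none rose, with a median change of -0.90. Of 26 small-subunit genes 11 fell (42.3%) and 1 rose, with a median of -1.20. Relative to MAR1HI, 10 large-subunit (19.6%) and 7 small-subunit genes (26.9%) fell, against 14.5% of all genes tested, with medians of -0.95 and -0.96. Genes with a bacterial counterpart (15 of 46 fell relative to BaP, median -0.95) and mitochondria-specific genes (12 of 31 fell and 1 rose, median -0.84) gave like values. No difference between these classes was tested.

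The 3 genes Mrps18a, Mrps18b and Mrps18c encode relatives of the same bacterial protein, and the last 2 sit in the small subunit. Mrps18c, the most abundant member, was at 382 and 139 TPM in BaP, 325 and 235 in MAR1HI, with 75.1 and 119 in MAR1INT. The MAR1INT libraries were the lowest, but BaP replicate 2 was close to them, and the change from BaP of -1.28 (SE 0.43, adjusted p = 0.0472) was lost without BaP replicate 1 or either MAR1HI library (adjusted p = 0.368, 0.135 and 0.135). Mrps18a was at 67.2 and 48.9 TPM in BaP, 50.3 and 41.8 in MAR1HI, with 26.6 and 44.5 in MAR1INT, with a change from BaP of -0.72 (SE 0.32, adjusted p = 0.121). MAR1HI and MAR1INT overlapped for this gene. Mrps30 was at 15.8 and 16.3 TPM in BaP, 13.4 and 27.3 in MAR1HI, with 22.6 and 14.6 in MAR1INT, so that the groups overlapped. Mrps36 was at 55.7 and 31.5 TPM in BaP, 47.2 and 52.4 in MAR1HI, with 25.8 and 19.6 in MAR1INT, with both MAR1INT libraries lowest and a change from BaP of -0.87 (SE 0.34, adjusted p = 0.0773).

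In the stalk, which recruits translation factors to the large subunit, the 3 genes had unlike values. Mrpl10, the base to which the other stalk proteins attach, was at 25.3 and 20.9 TPM in BaP, 25.3 and 32.8 in MAR1HI, with 30.0 and 24.5 in MAR1INT. Its groups overlapped, with a change from BaP of 0.23 (SE 0.31, adjusted p = 0.612). Mrpl12, the flexible part of the stalk, was at 41.2 and 30.5 TPM in BaP, 23.3 and 26.8 in MAR1HI, with 22.4 and 6.65 in MAR1INT. Its MAR1INT values were the lowest but far apart, and the change from BaP of -1.45 (SE 0.49, adjusted p = 0.0499) was lost on leaving out any 1 BaP or MAR1HI library or MAR1INT replicate 2 (adjusted p 0.128 to 0.286). Whether the stalk genes differ from each other was not tested.

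Proteins of the same ribosome whose symbols fall outside the rule did not pass the test. Dap3, a GTP-binding small-subunit protein, was at 7.43 and 10.7 TPM in BaP, 7.69 and 16.5 in MAR1HI, with 10.5 and 8.03 in MAR1INT, with overlapping groups. Ptcd3 and Chchd1, also of the small subunit, had both MAR1INT libraries below both BaP libraries, with changes of -0.48 and -0.92 (adjusted p = 0.351 and 0.0927). For Aurkaip1, of the small subunit too, MAR1INT (43.2 and 29.6 TPM) overlapped BaP (63.9 and 35.6 TPM), with a change of -0.41 (adjusted p = 0.391). Gadd45gip1, of the large subunit, was at 13.1 and 10.9 TPM in BaP, 5.86 and 11.6 in MAR1HI, with 6.42 and 9.04 in MAR1INT.

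The companion genes are the 5 proteins just named, factors that build and serve this ribosome, genes for mitochondrial DNA, and regulators of nuclear genes for mitochondria. Of 87 tested, 22 fell in MAR1INT relative to BaP (25.3%) and 3 rose (3.45%), against 20.4% and 11.1% of all genes tested. The median change was -0.77. Without 1 library at a time the count that fell was 8 to 34, the lowest without BaP replicate 1 and the highest without MAR1INT replicate 2. Relative to MAR1HI 11 fell (12.6%, against 14.5% of all genes tested) and 1 rose (1.15%, against 2.29%). Between BaP and MAR1HI none passed, against 2.49% of all genes tested. Of 26 assembly and ribosomal RNA modification factors 6 fell relative to BaP (23.1%, near the 20.4% of all genes tested) and 1 rose (3.85%). Fastkd2, an RNA-binding protein needed for the large-subunit ribosomal RNA, was at 21.9 and 12.6 TPM in BaP, 8.56 and 12.4 in MAR1HI, while being listed at 0 in both MAR1INT libraries (adjusted p = 0.000287). Mrm3, a methyltransferase of that RNA, was at 6.33 and 3.88 TPM in BaP, 0.821 and 3.74 in MAR1HI, while being listed at 0 in both MAR1INT libraries (adjusted p = 0.0055). Both genes were present in all BaP and MAR1HI libraries. The assembly factors Rcc1l and Gtpbp10 fell by 1.89 (adjusted p = 0.0108) and 1.70 (adjusted p = 0.0178), calls lost without BaP replicate 1 (adjusted p = 0.0611 and 0.104) and, for Gtpbp10, BaP replicate 2 (adjusted p = 0.0753). After quantile normalization both calls were also lost, with changes of -0.88 (adjusted p = 0.163) and -0.70 (adjusted p = 0.15).

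Of 17 mitochondrial translation factors and messenger RNA-binding proteins 4 fell relative to BaP (23.5%, near the 20.4% of all genes tested). Slirp, which with Lrpprc stabilizes mitochondrial messenger RNAs, was at 247 and 152 TPM in BaP, 154 and 134 in MAR1HI, while being listed at 0 in both MAR1INT libraries (adjusted p = 4.58e-06). This was the most abundant of these genes to be listed at 0. Metap1d, which removes the initiator methionine, was at 21.1 and 15.5 TPM in BaP, 8.25 and 9.55 in MAR1HI, and also listed at 0 in both MAR1INT libraries (adjusted p = 0.000171). Lrpprc was at 21.1 and 22.9 TPM in BaP, 16.4 and 22.9 in MAR1HI, with 7.66 and 5.22 in MAR1INT, lower in MAR1INT than in the 4 others. Its change from BaP was -1.65 (adjusted p = 0.0101, and 0.092 and 0.105 without BaP replicate 1 or 2). Tsfm, the exchange factor of the mitochondrial elongation factor Tu, fell by 1.63 (adjusted p = 0.0221, and 0.0671 and 0.217 without BaP replicate 1 or 2).

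Of 19 mitochondrial aminoacyl-tRNA synthetases and tRNA amidotransferase subunits tested 7 fell relative to BaP (36.8%, against 20.4% of all genes tested) and none rose. Sars2, which charges serine tRNA, was at 12.9 and 8.63 TPM in BaP, 7.36 and 8.65 in MAR1HI, with 0 and 0.714 in MAR1INT (adjusted p = 0.00114). Qrsl1, a subunit of the amidotransferase that makes glutaminyl-tRNA, was at 4.92 and 5.41 TPM, 3.40 and 5.58, and 0 and 0.0408 in the same order (adjusted p = 0.00182). In both genes the MAR1INT libraries were far below the rest. Pars2 and Gatb also fell (adjusted p = 0.0318 and 0.0498), but neither passed on leaving out any 1 BaP or MAR1HI library (adjusted p 0.0637 to 0.218 and 0.145 to 0.224), and Gatb did not pass without MAR1INT replicate 1 (adjusted p = 0.206). After quantile normalization the change of Pars2 was -0.997 (adjusted p = 0.259) and that of Gatb -1.57 (adjusted p = 0.142).

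Of 10 genes for the transcription and maintenance of mitochondrial DNA 3 fell relative to BaP (30.0%, against 20.4% of all genes tested). They were the nuclease Mgme1 (change -1.78, adjusted p = 0.0104), the helicase Twnk (-1.44, adjusted p = 0.0313) and the topoisomerase Top1mt (-1.81, adjusted p = 0.00861, and -0.40 with 0.395 after quantile normalization). Mgme1 lost the call without BaP replicate 1 or 2 (adjusted p = 0.0635 and 0.0986). Twnk lost it without any library but MAR1INT replicate 1 (adjusted p 0.0502 to 0.186), and after quantile normalization its change was -0.91 (adjusted p = 0.0585).

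Of 10 regulators of nuclear genes for mitochondria that were tested 2 fell relative to BaP, near the 20.4% of all genes tested. Another 2 rose, against 11.1% of all genes tested. Pprc1, a coactivator of such genes, was at 21.3 and 23.2 TPM in BaP, 5.62 and 10.8 in MAR1HI, with 3.73 and 1.12 in MAR1INT (change from BaP -2.88, adjusted p = 0.0029). Its groups did not overlap, with BaP highest. Ppargc1b, another coactivator, was near the filter at 1.49 and 1.42 TPM in BaP and listed at 0 in both MAR1INT libraries (adjusted p = 0.0346, and 0.0655 to 0.0898 without any 1 of the BaP or MAR1INT libraries). After quantile normalization its change was -0.17 (adjusted p = 0.647). Yy1, whose binding letters were described above, was at 62.2 and 58.2 TPM in BaP, 77.3 and 94.1 in MAR1HI, with 105 and 107 in MAR1INT, higher in both MAR1INT libraries than in the other 4. Its change from BaP was 0.80 (adjusted p = 0.0264, and 0.0846 to 0.15 without any 1 of the BaP or MAR1INT libraries). Max, the partner of MYC, was at 12.5 and 15.9 TPM in BaP, 23.1 and 34.1 in MAR1HI, with 39.95 and 37.6 in MAR1INT, with a change from BaP of 1.40 (adjusted p = 0.0113, and 0.114 and 0.057 without BaP replicate 1 or 2).

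Many members share their start region with a neighbour. In GENCODE M21, 33 of the 78 genes (42.3%) have the start of a protein-coding gene on the opposite strand within 1000 bases, against 10.9% of 21951 protein-coding genes. Mrps11 and Mrpl46 are each other's neighbour, with starts 412 bases apart. Of the 26 other neighbours that were tested, 10 fell (38.5%) and 3 rose (11.5%) in MAR1INT relative to BaP, against 20.4% and 11.1% of all genes tested, with a median change of -0.13. Mrps12 and Sars2 start 172 bases apart and both fell, Mrps12 from 24.04 and 16.9 TPM in BaP to 10.7 and 4.14 in MAR1INT (change -1.45, adjusted p = 0.0409). The Mrps12 call was kept in only 6 of 15 alternatives, and was lost on leaving out any library but MAR1INT replicate 1 (adjusted p 0.0901 to 0.281). Mrpl51 and the condensin gene Ncapd2 start 100 bases apart, and Ncapd2 was at 90.8 and 97.2 TPM in BaP and 17.3 and 12.8 in MAR1INT (change -2.58, adjusted p = 0.000264). Mrpl41, by contrast, fell from 12.6 and 11.04 TPM in BaP to 2.52 and 3.52 in MAR1INT (change -1.68, adjusted p = 0.0131, and 0.128 and 0.0903 without BaP replicate 1 or 2), while Pnpla7, which starts 935 bases away, rose from 71.7 and 78.6 to 289 and 333 TPM (change 2.03, adjusted p = 0.000337). The members with such a neighbour fell in 14 of 33 cases (42.4%) and those without in 13 of 45 (28.9%), and the difference was not tested. Exons of 33 members overlap those of another gene, among them Mrpl13 with Mtbp and Mrpl18 with Tcp1 on the opposite strand, and their reads may be shared.

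Genes for 2 related complexes are given side by side, with no test of the difference. Of 77 tested nuclear genes for subunits of the respiratory chain and ATP synthase, which work with the products of mitochondrial translation, 32 fell in MAR1INT relative to BaP (41.6%, against 20.4% of all genes tested) and none rose, with a median change of -0.71. Relative to MAR1HI 29 fell (37.7%, against 14.5%), with a median of -0.85. They summed to 18200 and 14000 TPM in BaP, 16730 and 16980 in MAR1HI, with 10500 and 10310 in MAR1INT. The MAR1INT sums were again the lowest. Of 90 tested genes for proteins of the cytosolic ribosome, 16 fell (17.8%) and 7 rose (7.78%) relative to BaP, near the shares of all genes, with a median of -0.07. Relative to MAR1HI 5 fell (5.56%, against 14.5%) and 11 rose (12.2%, against 2.29%), with a median of 0.22. Their sums were 234700 and 212000 TPM, 184600 and 160200, and 209200 and 226500 in the same order, so that MAR1INT overlapped BaP and lay above MAR1HI.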

How the data were processed

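Extraction used TRIzol LS and library preparation SureSelectXT RNA direct, a capture kit, per the labels' protocols. Per the submitters' processing notes, the authors used Trimmomatic, HISAT2, StringTie and the mouse build mm10; versions, options, strand setting and annotation release are not given in the sources used here. Per the file headers, each table gives coverage, FPKM and TPM per gene, and the deposited TPM values were analysed. Depth was computed from coverage and FPKM as 4.904 and 4.83 gigabases in BaP, 5.1 and 5.275 in MAR1HI, with 4.821 and 4.75 in MAR1INT, and read counts were not used, so no counting interval is given. Values of a gene ID split over several parts were added up (0 members were split). Symbols came from RefSeq on GRCm38.p6 (24462 of 24532 IDs matched, 70 did not), and 6 pseudogene symbols were left out. Coordinates are those of mm10, the same assembly. Genes with at least 1 TPM in at least 2 of 6 libraries were tested, and all 78 members passed.

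A single model of the 3 groups was fitted to log2(TPM + 1), using limma 3.58.1 (R 4.3.3; trended moderation, two-sided, Benjamini-Hochberg over 11337 genes, threshold 0.05), with 3 residual degrees of freedom and a median prior of 6.39. On data simulated for MAR1HI against BaP the fit called only a small part of the changes put in. Genes without a call may still differ. The MAR1INT comparisons, in which more genes were called, were not simulated. A fold or ratio is of group mean TPM; log2 changes understate those of low genes. The smallest p of an exact permutation test of 2 libraries against 2 is 0.333. The series' design text calls the libraries biological duplicates; whether they came from separate mice is not stated, so p-values measure the spread between these libraries. Members and gene lists were chosen with earlier results of these data known. Named members are, for each comparison, up to 10 called in each direction with the largest change, the 5 highest and 5 lowest, the 3 closest to 0 between MAR1INT and BaP, the Mrps18 genes, Mrps30, Mrps36, Mrpl58 and the stalk genes, with up to 4 called genes of each companion list and 5 ribosome proteins outside the rule; others were chosen after their values were seen. Alternatives were the pseudocount (0.1), the filter (none, or a mean of 5 TPM), FPKM, median-of-ratios and quantile scaling, the largest part of split IDs, only the 2 groups compared, a replicate block and leaving out each library. Python 3.11.15 with pandas 2.3.3, numpy 2.4.6 and matplotlib 3.10.9 was used. 1 companion symbol, Mtrfr, was not matched. The progenitor and megakaryocyte marker sums are not reported here.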

Additional observations from a re-analysis of the deposited data

How the results depend on the processing

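Results were recomputed under up to 15 alternatives, and those for companion genes were added after seeing the data. The members' median change stayed below 0 in all of them for both MAR1INT comparisons, while the counts of called genes moved. The causes were not tested. The fits that leave 1 library out also hold fewer libraries. Relative to BaP, 27 members fell (34.6%, against 20.4% of all genes in that fit). The count was 11 without a filter on low values (14.1%, against 8.4%) and 19 with a pseudocount of 0.1 (24.4%, against 18.3%). After quantile normalization it was 23 (29.5%, against 16.6%), and it also depended on single libraries, as given above. The 1 that rose was lost (0) in FPKM, without a filter, with only the 2 groups compared and after quantile normalization. Relative to MAR1HI, 17 fell and the count was 8 after median-of-ratios scaling, 4 without a filter, 8 with only the 2 groups compared, 11 with a pseudocount of 0.1, 9 after quantile normalization and 3 to 29 without 1 library, with 0 to 1 rising; the median of -0.95 became -0.69 after median-of-ratios scaling, -0.52 after quantile normalization and -1.04 to -0.79 without 1 library. Between BaP and MAR1HI, 1 member fell in FPKM and 1 after quantile normalization, and the median was -0.35 after median-of-ratios scaling, -0.34 after quantile normalization and -0.22 to 0.14 without 1 library. The 22 members differing among the 3 groups became 6 without a filter and 6 to 35 without 1 library.

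Of the companion genes, 22 fell relative to BaP and the count was 13 with a mean of 5 TPM, 14 without a filter, 13 after quantile normalization and 8 to 34 without 1 library; 3 rose, and 5 after median-of-ratios scaling, 9 after quantile normalization and 1 to 3 without 1 library. Relative to MAR1HI, 11 fell and the count was 3 without a filter, 6 with only the 2 groups compared, 5 after quantile normalization and 2 to 24 without 1 library; 1 rose, and 4 after median-of-ratios scaling, 2 after quantile normalization and 0 to 1 without 1 library. Between BaP and MAR1HI, 1 fell and 1 rose with only the 2 groups compared, 1 fell after quantile normalization, and both counts were 0 to 1 without 1 library.

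Some changes between MAR1INT and BaP that did not pass the test changed sign. In FPKM the change was -0.205 for Mrps16, -0.20 for Mrpl32, -0.054 for Mrps30, -0.003 for Mrpl10 and -0.165 for Dap3. After quantile normalization it was -0.055 for Mrps16 and -0.10 for Mrpl32. Without 1 library at a time it ranged from -0.117 to 0.086 for Mrpl24, -0.215 to 0.268 for Mrps16, -0.365 to 0.435 for Mrpl32, -0.13 to 0.47 for Mrps30, -0.20 to 0.276 for Dap3 and -0.82 to 0.007 for Aurkaip1. Over the genes named, 172 of the recomputed changes lost the call, 12 gained it, 17 turned and 707 did neither. By setting, the calls lost were 20 without a filter, 17 after quantile normalization, 14 with only the 2 groups compared, 12 with a pseudocount of 0.1, 11 after median-of-ratios scaling, 5 in FPKM and 7 to 25 without 1 library.

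With the replicate block, 30 members fell relative to BaP (38.5%, against 19.9% of all genes in that fit) and 16 relative to MAR1HI (20.5%, against 13.7%). Deviations of same-numbered libraries correlated at 0.15 for BaP and MAR1HI, -0.06 for MAR1HI and MAR1INT, and -0.09 for BaP and MAR1INT. Whether same-numbered libraries share mice or a sort is not stated. These correlations cannot decide it, since each deviation is from a mean of 2 libraries. With 2 libraries in each group, no outlying library could be identified within a group.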
